A study of Mus musculus with 16 samples.

Results

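The replication-dependent histone genes H2ac8, H4c2, H4c8 and H4c11 were taken by name, and their coverage by the RefSeq span of each gene in mm10. They are 4 of the 3203 genes that held at least 1 region of Dazl crosslinking, and they held 8 of the 8338 regions. Each of them held 2 regions. Dazl is a germ cell RNA-binding protein, and the libraries are KIN-CLIP libraries, in which a pulsed femtosecond laser crosslinks the protein to RNA in living cells for a set time. The cells were 1 monoclonal line of GC-1 spg, a mouse line derived from spermatogonia, that expresses Dazl under doxycycline. All libraries came from doxycycline-induced cells of this line, at 4.2x or 1x Dazl, 2.6 or 1 mW of laser power, and 30, 180 or 680 s of crosslinking. These make 12 conditions with 1 library each and no replicates, and 4 series of times, written here by Dazl level and power as 4.2x/2.6 mW, 1x/2.6 mW, 4.2x/1 mW and 1x/1 mW. The 0 s samples were not analysed here.

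Histones H2A and H4 are core proteins of the nucleosome, which packs DNA. Replication-dependent histone genes lie in clusters, have no introns, and are transcribed mainly in S phase, when new DNA needs new histones. Their mRNAs end in a stem-loop that binds the protein Slbp in place of a poly(A) tail. Within a family the genes are near copies of each other, so a short read from one gene may be placed on another.

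In each library the deposited value, which the authors call normalized coverage, is a whole number per position, and it was summed over a region. The sum is called coverage below. Summed over all regions it was lowest, at 11271, at 180 s of the 1x/1 mW series and highest, at 252932, at 680 s of 4.2x/2.6 mW. The depth in reads is unknown, so no counting interval is given. A value of 1 is the lowest listed, and in the 1x/1 mW series 74.0% of all regions stood at 1 at 30 s and 80.5% at 180 s. Values are also tied between libraries: in the 4.2x/2.6 mW series 0 of 8338 regions were lower at 680 s than at 30 s, and 3793 had exactly the same value. Of markers fixed for the cell type, 1 of 12 spermatogonial and germ cell genes (Sall4, mean coverage 1.67), 2 of 6 Sertoli cell genes (Wt1 and Dhh), 1 of 3 endothelial genes and 0 of 5 Leydig cell and 0 of 4 macrophage genes held a region, and Dazl itself held none. Of 4 myoid and fibroblast markers 2 did, Acta2 and Col1a1.

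All 4 genes lie on chromosome 13. H4c11 spans 21735034 to 21735456, H4c8 spans 23531044 to 23531478 and H4c2 spans 23756937 to 23757386, all on the plus strand. H2ac8 spans 23570663 to 23571220 on the minus strand. Of 64 replication-dependent histone genes in the RefSeq table these 4 held a region and the other 60 held none. By family, 3 of 12 H4 genes and 1 of 18 H2A genes held a region, against 0 of 16 H2B, 0 of 12 H3 and 0 of 6 H1 genes. Over all genes 3203 held a region, where the promoter table used below lists 27025 genes. A difference between families was not tested. No region left unassigned touched a histone gene of these families. Which sites are listed rests on the authors' selection, so a gene with no region is not shown to be unbound, and the choice among near copies may depend on how reads were placed.

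The start of an H4 gene is shown because it gives a common landmark for placing regions in genes of unequal annotated length. The stretches below run from 40 bases before to 30 bases after the start of the RefSeq span (RefSeq sequence, GRCm38.p6, plus strand). Capitals mark GGTCCG, the core of the element that the H4 transcription factor Hinfp binds, and TATAA, the TATA box.
H4c2, chr13:23756897-23756966: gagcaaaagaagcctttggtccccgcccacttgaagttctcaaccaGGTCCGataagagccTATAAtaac
H4c8, chr13:23531004-23531073: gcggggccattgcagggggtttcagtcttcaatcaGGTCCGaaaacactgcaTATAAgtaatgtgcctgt
H4c11, chr13:21734994-21735063: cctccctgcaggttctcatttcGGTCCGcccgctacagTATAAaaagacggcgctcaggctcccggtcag

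From the first base of GGTCCG to the first base of TATAA there were 15 nt in H4c2, 17 nt in H4c8 and 16 nt in H4c11. Counted from the first base of the RefSeq span, TATAA began 21 nt downstream in H4c2, 12 nt downstream in H4c8, 2 nt upstream in H4c11 and 31 nt downstream in H2ac8. Where a promoter held several, the TATAA nearest the start was taken. The annotated starts therefore lie at different distances from the TATA box, and distances from TATAA and from the 3′ end were used beside them. H2ac8 had no GGTCCG in its promoter on either strand. GGTCCG was found on either strand within 300 bases around the start, 250 before and 50 after, in 10 of 11 H4 genes of the promoter table, in 12 of 58 replication-dependent histone genes and in 8.39% of 27025 genes. TATAA was found on either strand of the same window in 10 of the 11 H4 genes and in 25.5% of all genes. On the sense strand within 40 nt of the start, TATAA was found in 8 of the 11 H4 genes and in 6.13% of all genes. GGTCCG was found there in 4 of the 11 and in 1.34% of all genes. The 2 motifs share no base in the stretches printed.

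The regions lay at matching places in the H4 genes. At the first shared position, the region ended 174 nt before the 3′ end in H4c2, 172 nt in H4c8 and 169 nt in H4c11, and it began 238, 234 and 239 nt after the start of TATAA. These are the downstream regions of H4c2 (23757196 to 23757212) and H4c8 (23531290 to 23531306) and the upstream region of H4c11 (21735271 to 21735287). A second position was held by H4c2 (23757120 to 23757136) and H4c8 (23531210 to 23531226), whose regions ended 250 and 252 nt before the 3′ end. Measured from the start of TATAA these began at 162 and 154 nt, a less close match. The downstream region of H4c11 (21735370 to 21735386) ended 70 nt before the 3′ end and had no counterpart within 10 nt in the other 2 genes. All 6 H4 regions were 17 nt long.

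**Figure D1:**
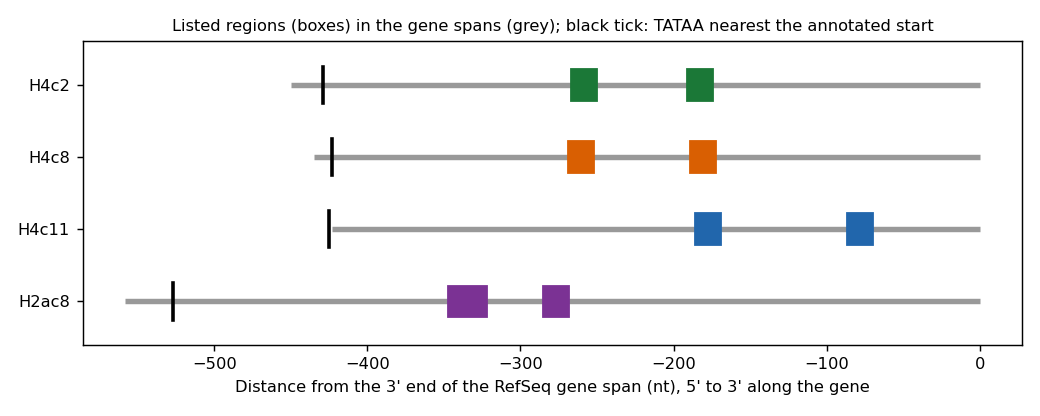
Places of the 8 regions (coloured boxes) in the RefSeq spans (grey bars) of H4c2, H4c8, H4c11 and H2ac8, drawn to scale 5′ to 3′ and aligned at the 3′ end, which is 0 on the axis in nt. The black tick is the TATAA nearest the annotated start. The boxes ending 169 to 174 nt before the 3′ end line up in the 3 H4 genes.

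In H2ac8 the upstream region (23570985 to 23571009) was 25 nt long and ended 322 nt before the 3′ end. The downstream region (23570931 to 23570947) was 17 nt long and ended 268 nt before it, with 37 nt between the 2 regions. No region of the 4 genes lay in the last 70 nt of its span, where the stem-loop lies in such mRNAs. Which regions are coding was not annotated here. None of the 8 regions overlapped a second RefSeq gene, but the files have no strand.

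At 1 mW the 6 H4 regions stood at 1 or 2 at 30 and 180 s and between 9 and 33 at 680 s. No RNA level comes with these values, so more mRNA and more crosslinking per mRNA cannot be told apart. In H4c2 the region at the first shared position held 9, 20 and 45 at 30, 180 and 680 s in 4.2x/2.6 mW, 7, 5 and 44 in 1x/2.6 mW, 1, 1 and 32 in 4.2x/1 mW, and 1, 1 and 22 in 1x/1 mW. The same position in H4c8 held 6, 20 and 44 in 4.2x/2.6 mW, 3, 2 and 43 in 1x/2.6 mW, 1, 1 and 33 in 4.2x/1 mW, and 1, 1 and 20 in 1x/1 mW. In both genes this position was low at 30 and 180 s in 3 of the 4 series and high in every library of 680 s. In H4c11 it held more at the early times of the stronger light, with 26, 27 and 38 in 4.2x/2.6 mW, 18, 15 and 35 in 1x/2.6 mW, 2, 2 and 21 in 4.2x/1 mW, and 1, 1 and 9 in 1x/1 mW. So the place that matches between the 3 genes had like values in H4c2 and H4c8 and an earlier course in H4c11 at 2.6 mW. Near copies may share reads, so the like values of H4c2 and H4c8 may not be independent.

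The second position was held in 2 genes. In H4c2 it had 7, 15 and 45 at 30, 180 and 680 s in 4.2x/2.6 mW, 2, 3 and 35 in 1x/2.6 mW, 2, 2 and 20 in 4.2x/1 mW, and 1, 1 and 12 in 1x/1 mW. In H4c8 it had 27, 24 and 41 in 4.2x/2.6 mW, 3, 1 and 38 in 1x/2.6 mW, 1, 1 and 19 in 4.2x/1 mW, and 1, 1 and 16 in 1x/1 mW. The H4c8 region stood at 27 at 30 s in the strongest condition and at 1 to 3 in every other library of 30 or 180 s except that of 180 s in the same series. The region of H4c11 nearest the 3′ end had 9, 23 and 40 in 4.2x/2.6 mW, 7, 4 and 34 in 1x/2.6 mW, 1, 1 and 26 in 4.2x/1 mW, and 2, 1 and 18 in 1x/1 mW. Its course was close to that of the first position in H4c2, and its lowest value at 680 s was above every early value but the 23.

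The upstream region of H2ac8 was high from the first time point in 3 of the 4 series. It held 58, 54 and 58 at 30, 180 and 680 s in 4.2x/2.6 mW, 56, 35 and 53 in 1x/2.6 mW, 26, 20 and 33 in 4.2x/1 mW, and 2, 2 and 13 in 1x/1 mW. In 3 of the 4 series the 30 s library already held at least 78.8% of the 680 s value, and only in 1x/1 mW was the region near the lowest value early. Its downstream neighbour in the same gene held 1, 1 and 32 in 4.2x/2.6 mW, 2, 1 and 31 in 1x/2.6 mW, 1, 1 and 21 in 4.2x/1 mW, and 1, 1 and 5 in 1x/1 mW. On the 2 sides of this 37 nt gap, one region was at its 680 s value and the other at the lowest value in the 30 s library of 4.2x/2.6 mW.

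**Figure D2:**
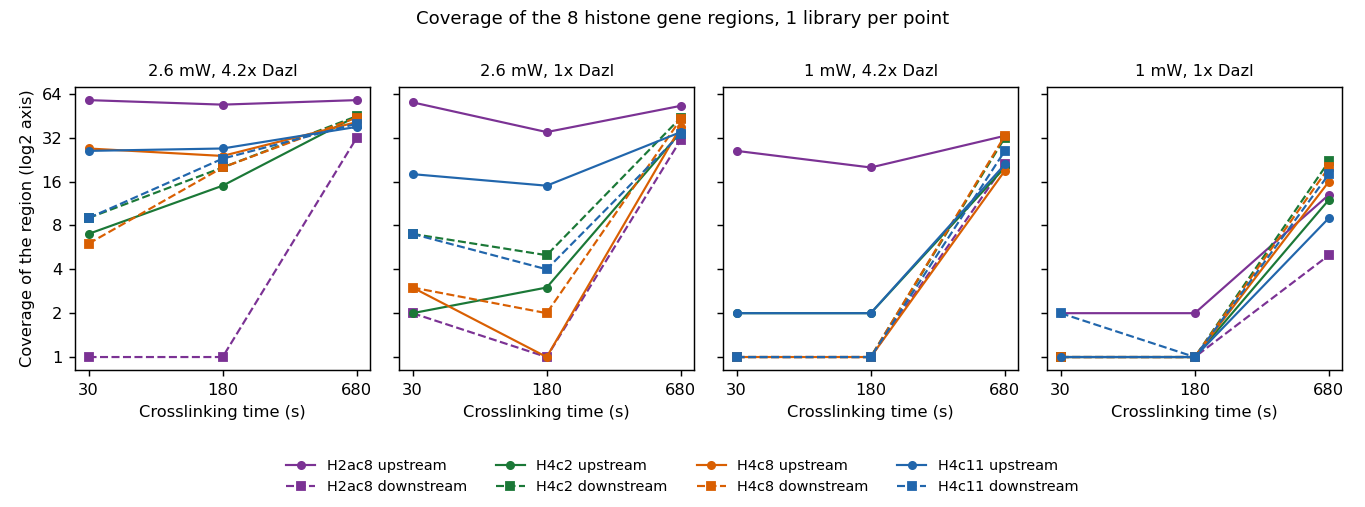
Coverage of the 8 regions (log2 axis) at 30, 180 and 680 s, spaced evenly, in the 4 series of laser power and Dazl level, with 1 library per point. The solid purple line, the upstream region of H2ac8, runs between 20 and 58 in the first 3 panels, while the other 7 regions stand at 1 or 2 at 30 and 180 s in 4.2x/1 mW.

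The share of the 680 s value already listed at 30 s puts the regions on 1 scale. In 4.2x/2.6 mW it was 3.13% in the downstream region of H2ac8 and between 13.6% and 22.5% in both regions of H4c2 and the downstream regions of H4c8 and H4c11. It was 65.9% and 68.4% in the upstream regions of H4c8 and H4c11 and 100% in the upstream region of H2ac8. The median was 84.1% over the 7303 regions with at least 10 at 680 s in that series. Only 0.904% of those regions had a lower share than the downstream region of H2ac8, and 41.1% and 42.5% had a lower share than the upstream regions of H4c8 and H4c11. The 100% of the upstream region of H2ac8 was above the share of 54.6% of them. It is a tie of the 30 and 680 s values, as in 3793 of all 8338 regions in that series. In 4.2x/1 mW the 6 H4 regions had between 3.03% and 10.0%, against a median of 46.7% over 6773 regions. There the 2 upstream regions of H4c2 and H4c11, at 2 in the 30 s library, stood above 24.1% and 23.6% of all such regions, the upstream region of H4c8 above 7.10%, and the 3 downstream regions above 0.325% to 1.82% of them. These shares rest on values of 1 or 2 at 30 s, and 1 is the lowest value listed.

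**Figure D3:**
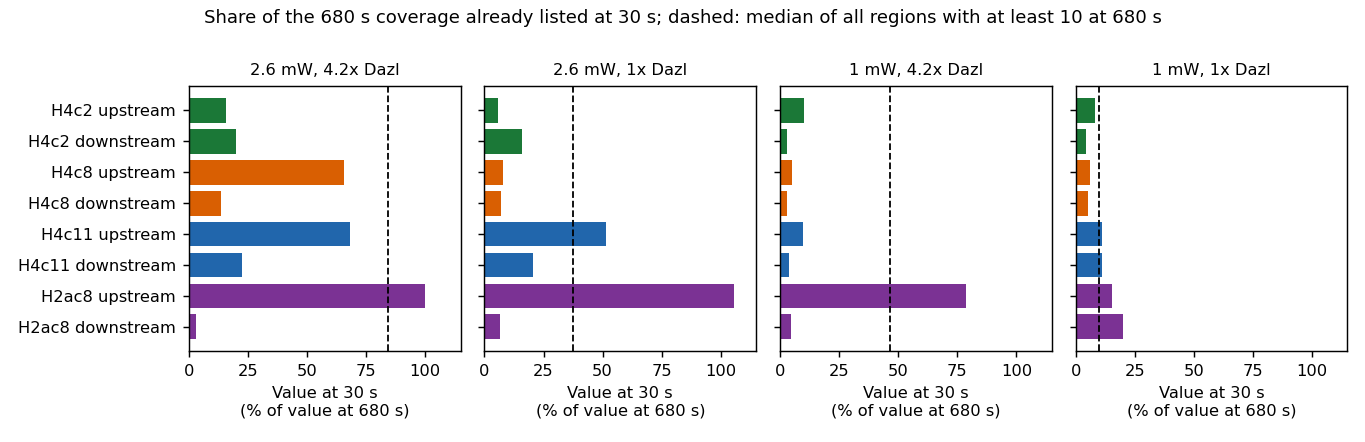
Value at 30 s as a percent of the value at 680 s for each of the 8 regions (bars, 1 library over 1 library) in the 4 series. The dashed line is the median of all regions with at least 10 at 680 s, 84.1% in 4.2x/2.6 mW. The bar of the upstream region of H2ac8 reaches 100% there, above the share of 54.6% of those regions.

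At 180 s the regions were no higher than at 30 s in most libraries. In 1x/2.6 mW, 7 of the 8 regions were lower at 180 s than at 30 s and 1 was higher, where 45.0% of all regions were lower. In 4.2x/2.6 mW 5 regions were higher, 2 lower and 1 equal, where 38.6% of all regions were lower. At 1 mW 7 of 8 were equal and 1 was lower, at either Dazl level, where 54.7% of all regions were lower in 4.2x/1 mW and 15.7% in 1x/1 mW. In 1x/1 mW all 8 stood at 1 or 2 at both times, as did 7 of the 8 in 4.2x/1 mW. Of all 8338 regions 7132 and 7698 stood at 1 or 2 at 30 and 180 s in 1x/1 mW, and 3012 and 3079 in 4.2x/1 mW. A region at 1, the lowest value listed, could not fall, so equal values there do not show a flat course. In 1x/1 mW 0 of all 8338 regions were higher at 180 s. None of the 8 regions was lower at 680 s than at 180 s in any series, as was so for nearly all of the 8338 regions, of which 49 were lower in 1x/2.6 mW and 0 in each of the other series.

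Summed over its 2 regions, H4c2 held 16, 35 and 90 at 30, 180 and 680 s in 4.2x/2.6 mW, 9, 8 and 79 in 1x/2.6 mW, 3, 3 and 52 in 4.2x/1 mW, and 2, 2 and 34 in 1x/1 mW. H4c8 held 33, 44 and 85, then 6, 3 and 81, 2, 2 and 52, and 2, 2 and 36 in the same order of series. H4c11 held 35, 50 and 78, then 25, 19 and 69, 3, 3 and 47, and 3, 2 and 27. H2ac8 held 59, 55 and 90, then 58, 36 and 84, 27, 21 and 54, and 3, 3 and 18. Per nt of the gene span, coverage at 680 s in 4.2x/2.6 mW was 0.200 in H4c2, 0.195 in H4c8, 0.184 in H4c11 and 0.161 in H2ac8, and with 1 library per condition neighbours in this order cannot be told apart. In gene totals, H4c2, H4c8 and H4c11 were near the lowest value in every library of 30 and 180 s at 1 mW, and H2ac8 was so only with 1x Dazl.

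Between 30 and 680 s of light all 4 genes rose. On the log2(value + 3) scale H4c2 rose by 2.79 ± 0.35 (SE; limma adjusted p = 2.65e-11), H4c8 by 2.73 ± 0.38 (adjusted p = 1.09e-08) and H4c11 by 1.96 ± 0.36 (adjusted p = 2.58e-06), each higher in 4 of 4 series. H2ac8 rose by 0.96 ± 0.39 (adjusted p = 0.0243), also in 4 of 4 series. At 2.6 mW the rise of its total came from its downstream region, from 1 to 32 at 4.2x and from 2 to 31 at 1x. Its upstream region went from 58 to 58 and from 56 to 53 there. Of all 8338 regions 0 were lower at 680 s than at 30 s in 4.2x/2.6 mW, 666 in 1x/2.6 mW, 607 in 4.2x/1 mW and 73 in 1x/1 mW. A rise in 4 of 4 series is therefore little support by itself. Over all 3203 genes 73.0% rose with time and the median change was 1.03, so a rise as such is what most genes did. H4c2 and H4c8 lay above 99.4% and 99.1% of genes in the size of this change, H4c11 above 90.9% and H2ac8 above 45.4%. The 4 values of 680 s did not overlap the 4 values of 30 s in H4c2 (34 to 90 against 2 to 16) and H4c8 (36 to 85 against 2 to 33), which was so in 12.8% of all genes, and they overlapped in H4c11 (27 to 78 against 3 to 35) and H2ac8 (18 to 90 against 3 to 59). The H2ac8 call was lost in turn without the 30 s or the 680 s library of 1x/1 mW, without the 680 s library of 4.2x/1 mW, and without the 680 s, 1x or the 30 s, 4.2x library of 2.6 mW, with adjusted p between 0.0538 and 0.176 and a change of 0.62 to 0.93. It was also lost with the highest position of a region (0.45, adjusted p = 0.063), plain eBayes (adjusted p = 0.0532), a slope on log2 time (adjusted p = 0.142) and without the 30 s and 180 s libraries of 1x/1 mW (0.52, adjusted p = 0.107). Between 30 and 180 s limma found a change in 0 of the 4 genes, with 0 at an unadjusted p under 0.05, and in 0 of 3203 genes, with 5 at an unadjusted p under 0.05.

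After every library was scaled to 1 common total and the median change was subtracted, H4c2 rose by 1.76 ± 0.29 more than the median gene (SE, log2; limma adjusted p = 0.0023) and H4c8 by 1.73 ± 0.43 more (adjusted p = 0.0169). H4c11, at 0.92 ± 0.30 (adjusted p = 0.0574), and H2ac8, at -0.09 ± 0.25 (adjusted p = 0.81), did not pass. Of all genes 9.93% passed upward and 1.50% downward. Each library scaled this way still carries its lowest value, and for the H4 regions that was the value in most libraries of 30 and 180 s at 1 mW. The H4c8 call was lost without the 680 s library of 1x/1 mW (adjusted p = 0.0522), either the 30 s (0.0805) or the 680 s (0.0563) library of 4.2x/1 mW, or the 30 s library of 1x/2.6 mW (0.0714), while its change stayed between 1.35 and 1.71 there, and with a slope on log2 time (0.0541). H4c11 passed in turn without the library of 30 s in 1x/1 mW (adjusted p = 0.0236), that of 180 s in 4.2x/1 mW (0.0494), that of 680 s in 1x/2.6 mW (0.0432) or that of 180 s in 4.2x/2.6 mW (0.0449).

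With laser power, 2.6 against 1 mW, all 4 genes rose, each in 6 of 6 matched pairs of libraries. H4c11 rose by 2.02 ± 0.30 (SE, log2; limma adjusted p = 2.51e-08), H2ac8 by 1.85 ± 0.32 (adjusted p = 5.3e-07), H4c8 by 1.50 ± 0.31 (adjusted p = 2.11e-05) and H4c2 by 1.44 ± 0.28 (adjusted p = 5.61e-06). Over all genes 93.4% rose and the median change was 1.22. The ratio of matched libraries of H4c11 was 1.66 at 680 s with 4.2x Dazl, and 16.7 at 180 s with 4.2x Dazl, where the values were 50 and 3. H4c8 held 33 at 2.6 mW against 2 at 1 mW at 30 s with 4.2x Dazl, but 3 against 2 at 180 s with 1x Dazl. Relative to the median gene, limma called 0 of the 4 (H4c11 0.73 ± 0.25, adjusted p = 0.117; H2ac8 0.46 ± 0.20, adjusted p = 0.176), with 2 at an unadjusted p under 0.05, and 0 of all genes, with 825 at an unadjusted p under 0.05.

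With Dazl level, 4.2x against 1x, 3 of the 4 genes rose. H2ac8 rose by 1.08 ± 0.32 (SE, log2; limma adjusted p = 0.0024) in 6 of 6 pairs, H4c8 by 0.92 ± 0.31 (adjusted p = 0.00714) with 4 of 6 pairs higher and 2 equal, and H4c2 by 0.62 ± 0.28 (adjusted p = 0.0392) in 6 of 6 pairs. H4c11, at 0.48 ± 0.30 (adjusted p = 0.121), did not pass, with 5 of 6 pairs higher and 1 equal. Over all genes 82.4% rose, with a median change of 0.88. At 1 mW the H4 genes held 2 or 3 at 4.2x and 2 or 3 at 1x at both 30 and 180 s, where H2ac8 held 27 and 21 at 4.2x against 3 and 3 at 1x. At 680 s and 1 mW all 4 were higher at 4.2x, with 52 against 34 for H4c2, 52 against 36 for H4c8, 47 against 27 for H4c11 and 54 against 18 for H2ac8. The H4c2 call was lost on leaving out any of 7 single libraries (adjusted p between 0.0614 and 0.222): that of 180 s in 1x/1 mW, that of 680 s in 4.2x/1 mW, the 3 libraries of 1x/2.6 mW, and the 30 s and 180 s libraries of 4.2x/2.6 mW. Without that last library H4c8 had an adjusted p of 0.071 and a change of 0.59, and without the 680 s library of the same series H4c11 passed (0.67, adjusted p = 0.0288). All 3 calls were lost with the highest position of a region in place of the sum (H2ac8 0.27, adjusted p = 0.148), that of H2ac8 without the 30 s and 180 s libraries of 1x/1 mW (0.55, adjusted p = 0.05004), that of H4c2 with a pseudocount of 1 (adjusted p = 0.0604) and that of H4c8 with plain eBayes (adjusted p = 0.0587). Relative to the median gene limma called 0 of the 4, with 0 at an unadjusted p under 0.05, and 0 of all genes, with 517 at an unadjusted p under 0.05.

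**Figure D4:**
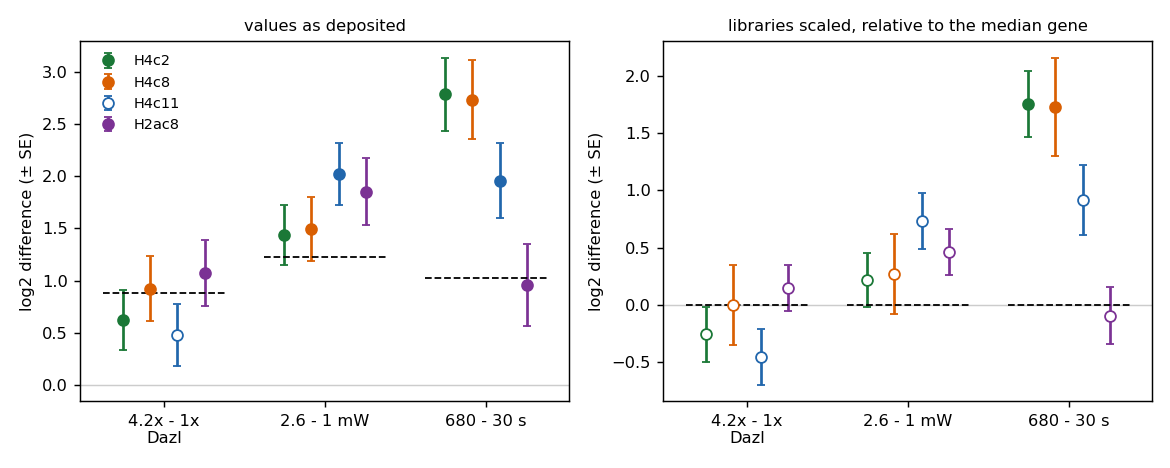
Log2 differences of the 4 genes (points, ± SE from limma over 12 libraries) for 4.2x minus 1x Dazl, 2.6 minus 1 mW and 680 minus 30 s, as deposited (left; dashed lines are the medians of all genes, 0.88, 1.22 and 1.03) and relative to the median gene (right). Filled points passed at an adjusted p of 0.05: only H4c2 and H4c8, at 1.76 and 1.73 with time, are filled on the right.

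The interaction of Dazl level and light, that is, the Dazl difference at 2.6 mW minus that at 1 mW, had opposite signs in H2ac8 and H4c8, and neither passed its test. For H2ac8, 4.2x against 1x gave 59 against 58, 55 against 36 and 90 against 84 at 2.6 mW, and 27 against 3, 21 against 3 and 54 against 18 at 1 mW, each at 30, 180 and 680 s. For H4c8 it gave 33 against 6, 44 against 3 and 85 against 81 at 2.6 mW, and 2 against 2, 2 against 2 and 52 against 36 at 1 mW. In H2ac8 the ratio was smaller at 2.6 mW at each of the 3 times. In H4c8 it was larger at 2.6 mW at 30 and 180 s, but smaller at 680 s (1.05 against 1.44). Both regions of H4c8 stood at 1, the lowest value listed, at 30 and 180 s of 1 mW, so no Dazl difference could be seen there. The 3 and 3 of H2ac8 were also near that value. The interaction term was -1.69 ± 0.58 (SE, log2) for H2ac8 and 1.51 ± 0.54 for H4c8, with limma adjusted p of 0.18 and 0.2. It was 0.51 ± 0.54 for H4c2 and 0.29 ± 0.55 for H4c11 (adjusted p = 0.616 and 0.781). The median of this term over all genes was -0.26. Of the 4 genes 0 passed, with 2 at an unadjusted p under 0.05, and 0.0312% of all genes did, that is, Lrrc28 alone, a gene named for its value. H2ac8 passed without the library of 680 s in 1x/1 mW (-2.01, adjusted p = 0.00236), as did H4c8 without that of 680 s in 4.2x/2.6 mW (2.25, adjusted p = 0.0158), and both did without all libraries of 680 s. Many other genes passed then too. Of all 3203 genes 860 were called without the 680 s library of 1x/1 mW, and 580 without all libraries of 680 s. So these calls are not particular to the histone genes.

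Over the 12 libraries, after subtracting each library's median gene on the log2 scale, the profiles of H4c2 and H4c8 had a Pearson correlation of 0.91. Of 2203 genes compared, H4c8 ranked 24 in likeness to H4c2, and H4c2 ranked 29 in likeness to H4c8. H4c11 had 0.78 with H4c2 and 0.71 with H4c8, while H2ac8 had -0.19, -0.31 and 0.15 with H4c2, H4c8 and H4c11. These describe 12 libraries that all genes share, with their totals and their lowest value. Among 2203 other genes with a mean coverage of at least 10, those most like H4c2 were Ppie, a cyclophilin of the spliceosome (0.98), Map2k1, a kinase of the MAP kinase pathway (0.98), and Hdgfl3 (0.94). Most like H4c8 were Zfp473, a zinc finger protein whose human counterpart binds the U7 particle of histone mRNA processing (0.98), Myo1h, a myosin (0.98), and Snrpe, a core protein of spliceosomal particles (0.97). H4c11 was most like Nuf2, a kinetochore protein (0.97), Lrp1, an endocytic receptor (0.96), and Gas1, a membrane co-receptor of Hedgehog (0.95). H2ac8 was most like Dad1, a subunit of the oligosaccharyltransferase (0.94), Vhl, a substrate receptor of a ubiquitin ligase (0.94), and Ndst1, an enzyme of heparan sulfate synthesis (0.94).

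Histone genes whose mRNAs are made outside S phase, most of them with poly(A) tails, are the other histone genes in these files. Of 11 such genes 6 held a region: Cenpa, the centromeric H3 variant, H3f3b, Macroh2a1, H1f0, H1f10 and H2az2, with mean coverages between 41.0 and 182. All 6 rose with Dazl level and with laser power (82.4% and 93.4% of all genes did), and 4 of 6 rose with time (73.0% of all genes), with a median time change of 1.07 over the list against 2.35 over H2ac8, H4c2, H4c8 and H4c11, a difference that was not tested. Relative to the median gene 0 of 6 passed with time in limma, with changes from -0.54 ± 0.29 for H2az2 to 0.14 ± 0.19 for Macroh2a1 and 1, H1f10, at an unadjusted p under 0.05 (-0.45 ± 0.20, adjusted p = 0.158). Summed over their regions, H2az2 held 74, 68 and 74 at 30, 180 and 680 s in 4.2x/2.6 mW, and H1f10 held 71, 69 and 71. The upstream region of H2ac8 alone held 58, 54 and 58 there, and the whole gene 59, 55 and 90. Such a tie of 30 and 680 s was held by 3793 of all 8338 regions in that series. Cenpa (272, 294 and 395), H3f3b (227, 220 and 271), Macroh2a1 (92, 89 and 120) and H1f0 (79, 67 and 86) were higher at 680 s than at 30 s.

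Of 22 genes for transcription, processing, export or decay of histone mRNA, 10 held a region, with the highest mean coverage in Tut4, a terminal uridylyltransferase (74.8), and Zfp473 (26.2). With time 7 of the 10 rose, with Dazl level 8 and with laser power all 10, and the median changes were 1.11, 0.84 and 1.44. These counts are near the shares of all genes, 73.0%, 82.4% and 93.4%. Slbp, the stem-loop binding protein, had 9, 30 and 60 at 30, 180 and 680 s in 4.2x/2.6 mW, 10, 9 and 50 in 1x/2.6 mW, 4, 3 and 32 in 4.2x/1 mW, and 2, 2 and 12 in 1x/1 mW. Relative to the median gene with time, 2 of these 10 genes rose (9.93% of all genes) and 1 fell (1.50% of all genes). Slbp rose by 1.05 ± 0.30 more than the median gene (limma adjusted p = 0.0294) and Zfp473 by 1.09 ± 0.33 (adjusted p = 0.0409). Sympk, a scaffold of the machinery that cuts histone pre-mRNA, had 42, 35 and 43 in 4.2x/2.6 mW and fell by 0.99 ± 0.24 relative to the median gene (adjusted p = 0.015). Of 21 histone chaperone genes 11 held a region, with the highest mean coverage in Set (131), Rbbp4 (94.8) and Npm1 (82.4). With Dazl level and with laser power all 11 rose (82.4% and 93.4% of all genes), and with time 7 did (73.0% of all genes). Relative to the median gene with time 0 of the 11 rose (9.93% of all genes) and 1 fell (1.50% of all genes), Ssrp1, a subunit of the FACT complex (-0.74 ± 0.17, adjusted p = 0.0107).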

How the data were processed

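KIN-CLIP libraries of 12 conditions of induced GC-1 spg cells were used, 1 per condition. The deposited values are a score per position, called normalized coverage by the authors, in whole numbers and with no strand. FastQC, Bowtie2 and mm10 are named, per the submitters' processing notes; the steps of counting, normalization and selection were not given in the sources used here. Listed intervals of all libraries were merged when 10 nt or less separated them, and a region's value is the sum of width times score. Regions were given to a gene when they lay in 1 RefSeq gene, or in 1 protein-coding gene among several (GRCm38.p6). Gene strands came from the promoter table. The fit, on log2(value + 3), used limma 3.58.1 under R 4.3.3 with additive terms for Dazl level, laser power and time, with trend and robust eBayes, adjusted by Benjamini-Hochberg over 3203 genes, at a threshold of 0.05. There were 7 residual degrees of freedom, to which eBayes added a median of 107.09 (11.05 on scaled values), so p-values lean on a spread shared between genes. No condition was repeated: the spread is that of departures from additivity, and p-values take the libraries as independent. The fit was tested on simulated data. The genes, lists and tests were chosen with earlier results of these data known; named genes are the 4 histone genes, the 3 most correlated with each, and genes of the lists. Alternatives tried were other pseudocounts, filters, join distances and gene assignment rules, the highest position of a region, plain eBayes, a slope on time, centring on the median, and libraries left out.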

Additional observations from a re-analysis of the deposited data

How the results depend on the processing

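Every call for light on values as deposited, and every call of H4c2, H4c8 and H4c11 for time on those values, held under all alternatives run, each library left out included. Taking the highest position of a region in place of the sum left 0 of the 4 genes called for Dazl level, where 3 were called. Centring on the library median gave 2 calls for laser power relative to all genes, H2ac8 and H4c11, where scaling by totals gave 0. A slope on log2 time left 1 gene, H4c2, called relative to all genes. Without all libraries of 680 s the interaction of Dazl and light was called in 2 genes. In each of these the cause was not tested. With each library left out in turn, the number of genes called was between 1 and 4 for Dazl level, 4 for laser power, 3 to 4 for time, 0 relative to all genes for Dazl level and for laser power, 1 to 3 for time relative to all genes and 0 to 1 for the interaction. Without the early libraries (30 and 180 s) of the 1x/1 mW series, where most regions stand at the lowest value, H4c11 was called for time relative to all genes (1.16, adjusted p = 0.0242). Over all 3203 genes, the highest position called 1398 genes for Dazl level against 2640, and 1540 for time against 2339; a slope called 1224 for time. Relative to all genes, median centring called 554, 1105 and 898 genes for Dazl level, laser power and time, against 0, 0 and 366, and the count for time lay between 120 and 964 over the settings run. The interaction was called in 1 gene, but in 860 without the 680 s library of 1x/1 mW and in 580 without all 680 s libraries. No called change reversed its direction. No paired analysis was possible because each condition has 1 library, so no replicate number could be a block beyond the matching by time, power and Dazl level that the additive fit already uses. Depth in reads is unknown, so counting error cannot be given.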

Other observations

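A region in no RefSeq gene began 59 nt past the 3′ end of H4c8, at 23531537 to 23531553 of chromosome 13. It held 42, 37 and 42 at 30, 180 and 680 s in 4.2x/2.6 mW, 6, 13 and 31 in 1x/2.6 mW, 23, 18 and 26 in 4.2x/1 mW, and 1, 1 and 6 in 1x/1 mW. At 30 s of 4.2x/1 mW it stood at 23, where both regions inside H4c8 stood at 1. It was the single region within 1000 nt outside any of the 4 histone genes.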
